A study of Mus musculus with 4 samples.

Results

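The brains of SAMP8 and SAMR1 mice kept on the same control diet were set against each other by their messenger RNA levels. SAMP8 is a senescence-accelerated prone line with early deficits of learning and memory, and SAMR1 is the senescence-resistant line used as its control. Both lines share, per the labels, an AKR/J genetic background with suspected outbreeding to an unknown line. The mice arrived at 6 weeks of age and received the low-safflower oil (LSO) diet from 24 to 50 weeks. They went through 8 days of behavioural tests at 49 weeks, and whole brains were taken at 50 weeks. The labels give neither the number of mice behind an RNA nor whether RNAs were pooled, so SAMP8 and SAMR1 are each represented here by 1 RNA.

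The comparison rests on the 2 arrays, of 4 in the series, that carried SAMP8 LSO RNA against SAMR1 LSO RNA with the dyes exchanged. On each array both RNAs bound the same probes, one labelled with Cy3 and the other with Cy5. Every ratio was turned to SAMP8 over SAMR1, so a log2 ratio of 1 is a doubling in SAMP8. Both arrays measured the same pair of RNAs and count as 1 replicate. The difference between the strains therefore has no replicate check and no test was run. The SD given with a log2 ratio is over the 2 dye orientations and covers technical error only. Only features whose probe stood well above background in 1 or both RNAs, on both arrays, were taken as measured, namely 26938 of 33269 genes and unnamed transcripts. Higher and lower are used for features that reached 1.5-fold or more, the same way round, on each array.

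Interferons are cytokines that act through receptors on most cells and switch on a shared set of antiviral genes. That set holds sensors and blockers of viral RNA, guanylate-binding proteins and the machinery that displays peptides to T cells on class I histocompatibility molecules. In brain, microglia, astrocytes and vascular cells take part in this response. AKR mice are known for the endogenous retroviruses they carry. Inbred lines also differ from each other at single loci, where a transcript can be made in one line and not in the other, and neighbouring genes on a chromosome are inherited together.

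In all, 394 genes and transcripts were called, 1.46% of those measured. Of these 261 were higher in SAMP8, 0.969% of all measured, and 133 were lower, 0.494%. Among them 154 of the higher and 63 of the lower had a gene symbol. At these shares 0 calls in a short list of genes is near the share of all. Ratios lay above 0 on both arrays for 6439 of the 26938 measured and below 0 on both for 7191, to be set beside the list counts below. The median log2 ratio of all measured genes was −0.0067 and 93.1% of genes lay within 0.25 of 0. By the calling rule every called gene lay beyond 0.25. At least 2-fold on each array were 101 higher and 38 lower, and at least 8-fold were 8 higher and 2 lower. The median SD over the dye orientations was 0.079 among the called genes and 0.087 among all. In 40 more genes the ratio exceeded 1.5-fold on each array but changed sign with the dyes, and none of these was called.

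**Figure D1:**
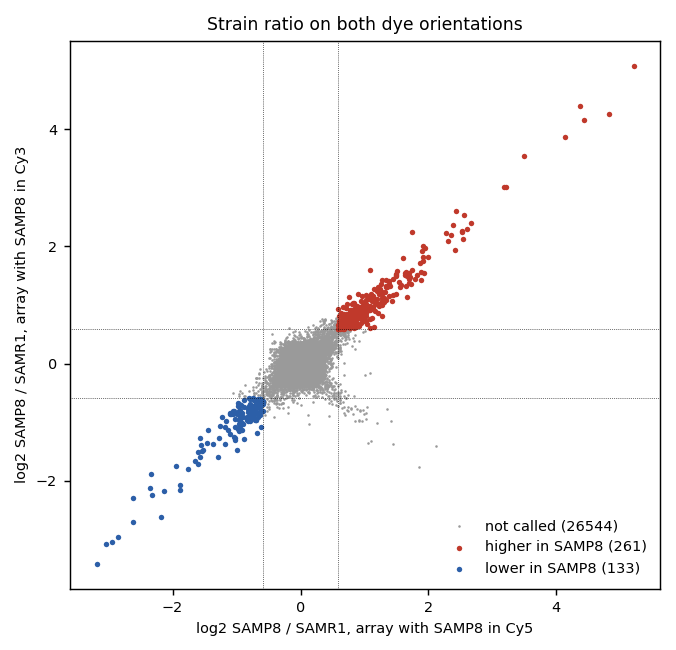
Log2 ratio of SAMP8 over SAMR1 on the array with SAMP8 in Cy5 (horizontal) and on the array with SAMP8 in Cy3 (vertical), 1 point for each of 26938 measured genes and transcripts. Dotted lines mark 1.5-fold. The 261 called higher and 133 called lower lie along the diagonal, and 40 uncalled points past both lines with opposite signs lie at the lower right.

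Each array had 43379 probe spots. Median spot signals were 280 and 321 in Cy3 and 306 and 357 in Cy5, against median backgrounds from 69.0 to 75.5. Between 83.0% and 85.6% of spots exceeded background well in a given channel, with 0 saturated spots. Brain markers were present in both RNAs. All 18 pan-neuronal, 18 astrocyte, 18 oligodendrocyte and 19 microglia and macrophage markers measured were well above background in both. Transcripts of the Y-linked genes Ddx3y, Eif2s3y, Kdm5d and Uty, which were looked up after the values were seen, were also well above background in both RNAs, with log2 ratios of −0.07, −0.17, −0.09 and 0.03.

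The interferon stimulated genes were the group with the most members higher in SAMP8. Of 35 measured, 18 were higher, 0 were lower and 33 had ratios above 0 on both arrays (median log2 ratio 0.63). The highest was Ifi27l2a, a small interferon-induced membrane protein. Its background-subtracted signal was 2541 for SAMP8 against 339 for SAMR1 with SAMP8 in Cy5, and 2127 against 449 with SAMP8 in Cy3. This gives a log2 ratio of 2.45 ± 0.22, and its second probe stood at 1.80. Usp18, the protease that strips ISG15 from proteins, had signals of 344 and 374 in SAMP8 against 38 and 61 in SAMR1, a 3.76-fold difference. Isg15 itself, the ubiquitin-like modifier, had signals of 476 and 548 against 175 and 160 (log2 ratio 1.34 ± 0.36). For all 3 genes the SAMP8 signal lay above the SAMR1 signal in both dye orientations.

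Several arms of the antiviral programme were represented among the higher genes. Rtp4 stood at a log2 ratio of 1.71 ± 0.15 and Ifit1, which binds foreign RNA caps, at 1.67 ± 0.21. The oligoadenylate synthetase family, which activates RNase L, included Oasl2 (1.62 ± 0.24), Oas1f (1.54 ± 0.27) and Oas1a (1.35 ± 0.03). Oasl1 was also called (0.76 ± 0.05), with SAMR1 well above background on 1 of the 2 arrays. Oas2 was at least 2.21-fold and Ifi44 at least 2.51-fold higher, because neither probe was well above background in SAMR1. The Oas genes are close copies and their probes may not separate them. Members with smaller ratios included the kinase gene Eif2ak2 (1.04 ± 0.33), the virion tether Bst2 (0.94 ± 0.26) and the transcription factor genes Irf7 (0.84 ± 0.02) and Irf9 (0.78 ± 0.19, second probe 0.15). The list was not uniform, since Ifit2 stood at 0.09, Stat2 at 0.08 and Rsad2 at 0.35, and none of these 3 was called.

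The interferon inducible GTPases, which attack the vacuoles of intracellular microbes, included further called genes. Of 13 measured, 7 were higher and 0 lower, with a median of 0.74. The largest ratios were those of Tgtp1 (1.87 ± 0.07), Gbp3 (1.36 ± 0.06), Ifi47 (1.00 ± 0.08), Irgm2 (0.88 ± 0.03) and Igtp (0.83 ± 0.02). The second probe of Tgtp1 stood at 0.14, so its value is uncertain. Gbp9 was the member nearest to no difference, at −0.07. In the Ifi200 family of nucleic acid binding proteins, 2 of 4 were higher, Ifi204 (1.58 ± 0.10, second probe 1.20) and Ifi202b (1.1 ± 0.04).

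The lists of interferon receptors and signalling and of nucleic acid sensing stood nearer to 0. Of 23 measured genes for interferon receptors and their signalling, 1 was higher and the median was 0.04. That gene was Tyk2, the kinase bound to the type I interferon receptor, with signals of 362 and 409 in SAMP8 against 12 and 34 in SAMR1 (log2 ratio 2.37 ± 0.01, 1 probe). The receptor genes Ifnar1 and Ifnar2 stood at 0.08 and 0.11, and Jak1 at −0.01. Among 24 sensors and adaptors of nucleic acid sensing 0 were called, with a median of 0.02 and a range from −0.17 to 0.29. Tlr4, Tlr2 and Pycard were the members farthest from 0, at 0.29, 0.20 and −0.17. The contrast depends on how genes were assigned to lists. The RNA sensor gene Ifih1 was higher (0.71, second probe 0.29) but was in neither list, nor were Irf7 and Irf9.

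To show what the higher genes carry upstream, their promoters were taken from RefSeq (build GRCm38.p6, 250 bases before to 50 after the start of transcription). They were searched on both strands for the core of the interferon-stimulated response element, GAAANNGAAA. On the opposite strand this reads TTTCNNTTTC. Of 14779 measured genes with a symbol, 11787 had a promoter in the table. The core was found for 458 of these, or 3.89%, and for 1079 of all 27025 genes with a promoter, or 3.99%. Among genes called higher it was found for 24 of 115, or 20.9%, and among genes called lower for 3 of 45, or 6.67%. Of the interferon stimulated genes 11 of 24 measured held it, and 6 of the 12 called higher. A match describes the letters in this window and is not a site of binding, and where none was found only these letters are missing. The windows below, all upstream of the start, are from interferon stimulated genes and GTPases that were called higher. The match is in capitals, 5′ to 3′ on the strand of the gene.
Isg15 (chr4:156200856-156200915, minus strand): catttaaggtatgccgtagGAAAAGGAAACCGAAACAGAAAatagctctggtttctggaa
Oas1a (chr5:120907526-120907567, minus strand): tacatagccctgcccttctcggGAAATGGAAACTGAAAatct
Bst2 (chr8:71537565-71537624, minus strand): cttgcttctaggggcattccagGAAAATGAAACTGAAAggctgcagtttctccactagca
Ifit1 (chr19:34640770-34640828, plus strand): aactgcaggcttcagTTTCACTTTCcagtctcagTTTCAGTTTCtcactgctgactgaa
Gbp2 (chr3:142620579-142620638, plus strand): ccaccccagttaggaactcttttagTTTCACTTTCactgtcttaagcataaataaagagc
Gbp3 (chr3:142559977-142560036, plus strand): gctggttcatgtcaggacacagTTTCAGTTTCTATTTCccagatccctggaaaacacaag
Tgtp1 (chr11:48992289-48992348, minus strand): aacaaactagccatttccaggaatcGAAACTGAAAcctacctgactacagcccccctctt
Igtp (chr11:58199497-58199555, plus strand): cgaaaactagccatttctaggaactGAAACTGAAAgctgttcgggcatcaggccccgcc
Irgm2 (chr11:58214888-58214947, plus strand): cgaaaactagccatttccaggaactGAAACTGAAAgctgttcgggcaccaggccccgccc
Isg15 holds 3 overlapping matches, while Oas1a, Bst2, Gbp3 and Ifit1 hold 2 each. The Igtp and Irgm2 windows agree at 57 of 59 bases, and both genes were higher.

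Class I antigen presentation genes were also higher in part. Of 20 measured, 7 were higher, 0 lower and 14 above 0 on both arrays, with a median of 0.27. H2-Bl, a class I gene, had signals of 1878 and 1653 in SAMP8 against 23 and 23 in SAMR1. Its 3 probes stood at 4.39, 3.06 and 1.21, all higher. H2-Q2 (0.90 ± 0.06), H2-Q10 (0.84 ± 0.09), H2-Q1 (0.75 ± 0.16), H2-T23 (0.75 ± 0.04) and H2-Q7 (0.73 ± 0.05) followed. The other 3 probes of H2-Q10 stood at 0.29, −0.09 and −0.11. These genes are near-identical and vary in sequence between lines, so a probe may read several of them. The immunoproteasome subunit Psmb9 was higher (0.67 ± 0.02), while B2m (0.62), the light chain of class I molecules, was not called. Psmb8, another such subunit, stood at 0.61 without a call by its brightest probe and was called at 0.67 by its second. The peptide transporter genes Tap1 and Tap2 stood at 0.17 and 0.31. Of 9 class II genes 0 were called (median 0.12), and they ranged from H2-Ob at −0.30 to H2-Aa at 0.42. A second probe of H2-Aa was lower at −0.82.

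The retrovirus restriction list, of genes that limit retroviruses, relatives of such genes and a retroviral receptor gene, had 5 of 21 higher and 0 lower. Its median was 0.10. Apart from Bst2 all 5 were members of the Trim family that lie in the same run of neighbours. Trim12a, a relative of the capsid binding protein TRIM5, had signals of 688 and 646 in SAMP8 against 12 and 30 in SAMR1. Its log2 ratio was 3.10 ± 0.13 and its second probe stood at 1.09. Trim30d (1.25 ± 0.03), Trim30a (1.05 ± 0.04) and Trim34a (1.05 ± 0.25) were higher too. However, the second probe of Trim30a stood at 0.68 without a call, and the other probes of Trim34a at 0.07 and −0.06. The promoters of Trim30a and Trim30d carry the same core and agree at 59 of 60 bases around it.
Trim30a (chr7:104465195-104465254, minus strand): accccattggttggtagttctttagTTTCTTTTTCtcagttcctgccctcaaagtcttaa
Trim30d (chr7:104507856-104507915, minus strand): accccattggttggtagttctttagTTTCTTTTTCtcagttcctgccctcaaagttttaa
Other members were not called, with Fv1 at 0.10, Apobec3 at 0.13 and the retroviral receptor gene Xpr1 at −0.05.

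Among 30 measured chemokines and receptors 5 were higher and 1 was lower, with a median of 0.19. Ccl19, which draws T cells and dendritic cells to lymphoid tissue, had signals of 42032 and 35700 in SAMP8 against 1312 and 2304 in SAMR1. That is 23.3-fold, and its second probe stood at 4.22. Cxcl10, an interferon-induced T-cell chemokine, was next (1.66 ± 0.33), followed by Ccl27a (1.13 ± 0.00), the B-cell chemokine Cxcl13 (1.11 ± 0.14) and Ccl21a (0.80 ± 0.05). Ccl17, a chemokine for type 2 helper T cells, was lower (−0.79 ± 0.03). Ccl19, Ccl21a and Ccl27a have near-identical copies in the mouse genome. Both Cxcl10 and Ccl19 hold the response element core far upstream of the start.
Cxcl10 (chr5:92349068-92349127, minus strand): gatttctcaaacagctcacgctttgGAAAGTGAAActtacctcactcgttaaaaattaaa
Ccl19 (chr4:42756539-42756598, minus strand): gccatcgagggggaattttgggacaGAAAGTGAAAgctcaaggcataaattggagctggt
Among 26 cytokines and receptors 0 were called, with a median of 0.03.

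Other immune genes were divided in direction. Complement had 2 of 23 lower and 0 higher, namely C4b (−0.83 ± 0.21) and C2 (−0.79 ± 0.09), which act together in the classical pathway. C3, the component at which all pathways meet, stood at 0.56 without being called, and the list's median was 0.07. Neutrophil granule genes had 2 of 13 higher, S100a9 (1.31 ± 0.06) and S100a8 (1.11 ± 0.02), with 10 above 0 on both arrays and a median of 0.42. Their list mates Chil3 (0.58), Ltf (0.47), Lcn2 (0.43) and Ngp (0.43) were not called. Among 15 lymphocyte and immunoglobulin genes 1 was lower, the killer cell receptor gene Klrd1 (−0.74 ± 0.02), with a median of 0.02. The inhibitory receptor gene Fcgr2b stood at −0.71 without a call by its brightest probe, at −0.73 with a call by the second and at −0.55 by the third.

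**Figure D2:**
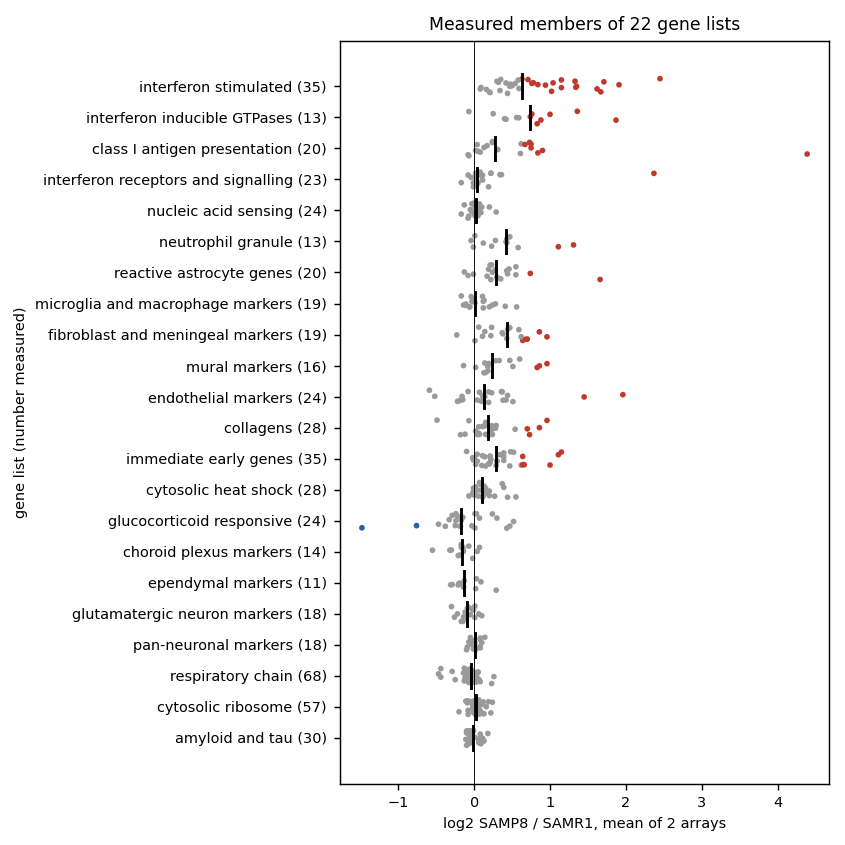
Mean log2 ratio of SAMP8 over SAMR1 for each measured member of 22 gene lists (points), with red for genes called higher, blue for genes called lower and grey for genes not called. Black bars are list medians, which reach 0.74 for the interferon inducible GTPases and 0.63 for the interferon stimulated genes and lie at 0.02 for nucleic acid sensing.

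Large differences outside immunity concerned genes of several roles. Adat2, a subunit of the deaminase that edits transfer RNA, had signals of 3376 and 3036 in SAMP8 against 450 and 620 in SAMR1 (log2 ratio 2.53 ± 0.19). Tmem40, a membrane protein, stood at 2.52 ± 0.12, with its second probe at 0.95. Abcb1a, the P-glycoprotein pump of brain endothelium, stood at 1.96 ± 0.06. Fbll1, a fibrillarin-like methyltransferase, was higher at 1.83 ± 0.10, and Slc2a5, the fructose transporter that microglia express in brain, at 1.61 ± 0.07. The formin gene Diaph3 (1.59 ± 0.07), the pseudouridine synthase gene Rpusd4 (1.54 ± 0.05) and Gramd3 (1.47 ± 0.10) completed this part of the ranking. Zfp606, a zinc finger gene, had a ratio of 1.5 ± 0.00 by its brightest probe but −0.43 by its second probe, and is left without a direction.

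Genes lower in SAMP8 included several with bright signals. Ppp1r1a encodes inhibitor 1 of protein phosphatase 1, through which cyclic AMP acts on synaptic phosphorylation. Its signals were 3450 and 2358 in SAMP8 against 29351 and 32810 in SAMR1, which is 9.87-fold lower, and its second probe stood at −2.49. The other 23 genes for this phosphatase and its regulators were not called. Gdpd5, a glycerophosphodiesterase that acts in motor neuron differentiation, had signals of 444 and 346 against 3919 and 3990 (8.36-fold lower). Mrpl41, a protein of the mitochondrial ribosome, had 12061 and 8686 against 31894 and 35352 (3-fold lower, second probe −1.12). It was 1 of 74 measured genes of that ribosome, whose median was −0.01, and the others stayed between −0.17 and 0.62 by their brightest probes. Dimmer probes of Mrpl17 and Mrpl35 were higher, at 1.60 and 1.45, against 0.10 and 0.21 for the brightest.

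Lower genes with known roles in neurons and glia followed. Lyst, the lysosomal trafficking regulator mutated in beige mice, had signals of 208 and 215 against 934 and 997 (log2 ratio −1.85 ± 0.14). The remaining 43 lysosome and autophagy genes were not called. Kcnn2, a calcium-activated potassium channel that shapes firing and plasticity in hippocampus, was 2.10-fold lower, with both probes called (−1.07 and −0.90). In the list of 38 potassium channel genes, which does not hold the mural marker Kcnj8, it was the member called, and the others ran from −0.18 to 0.57. Gpr85, an orphan receptor of brain, was lower at −1.13 ± 0.07 and Uchl3, a deubiquitinating enzyme, at −1.16 ± 0.14. Lefty1, an inhibitor of nodal signalling, had signals of 20 and 12 against 443 and 488, a log2 ratio of −2.66 ± 0.07. In the same TGF-beta list Bmp7 was higher (0.99 ± 0.04) and the median of 40 genes was 0.03.

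Further genes at the low end were Zfp551 (−2.24 ± 0.16), Thnsl2 (−1.78 ± 0.03), Morn2 (−1.52 ± 0.03), the lipid droplet gene Plin4 (−1.48 ± 0.12) and Prl2c5 (−1.42 ± 0.21), which has near-identical copies. Prdm16, a regulator of brown fat and of neural progenitors, stood at −1.41 ± 0.08 and Capg, which caps actin filaments, at −1.37 ± 0.01. Rassf3 (−1.16 ± 0.20), the transcription factor gene Usf1 (−1.16 ± 0.08), Slc25a41 (−1.05 ± 0.09), the mitochondrial phospholipid enzyme gene Tamm41 (−1.01 ± 0.08) and Uap1l1 (−0.99 ± 0.05) also stood among the 25 lowest. Trub1, a pseudouridine synthase gene, was at −1.24 ± 0.34 with its other probe at −0.10.

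Called genes often lay next to each other in the genome. Genes were put in the order of the RefSeq annotation of GRCm38.p6, used here only for names and order, as the array headers give a different build. Of 217 called genes with a symbol, 50 (23%) had a called gene as the next measured named gene on either side. Of all 14779 genes 1.47% were called, and among the 14562 not called 364 (2.50%) lay next to a called one. In 45 of the 50 the neighbour was called in the same direction. Within 3 measured genes on either side, 78 of 217 (35.9%) had a called neighbour, against 1014 (6.96%) of the genes not called. Members of one gene family often sit side by side and can bind each other's probes. When neighbours whose symbols begin with the same letters were not counted, an alternative chosen after the data were seen, 22 of 217 (10.1%) still had a called next neighbour, against 319 (2.19%) of the genes not called.

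The called genes formed 10 runs of at least 3, with at most 1 uncalled gene between, and 9 of the 10 went one way. One run of unrelated genes held Nuf2, of the kinetochore (0.76), Rgs5, a pericyte regulator of G protein signalling (0.83), Hsd17b7, of cholesterol synthesis (0.70), and the collagen receptor gene Ddr2 (0.71). Rgs4 lay between them at 0.17, and Uap1 at one end stood at −0.24. A second included Rpp25l (0.93) and Dctn3, a dynactin subunit (1.62). Dctn3 had signals of 72678 and 57794 in SAMP8 against 18915 and 29032 in SAMR1. Next to this run, beyond Galt (−0.03) and Il11ra1 (0.41), lay Ccl27a, Ccl19 and Ccl21a. These 5 called genes were all higher in SAMP8, while Cntfr and Fam205c at its ends stood at −0.08 and 0.09.

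Tmem40 (2.52, second probe 0.95) lay next to Cand2 (1.33, second probe 0.30) and, across Rpl32 (0.11), to the DNA repair glycosylase gene Mbd4 (0.91). The drug transporter genes Abcb1a (1.96), Abcb1b (0.82) and Abcb4 (0.79) formed a run between Rundc3b (−0.01) and Crot (−0.08), and second probes stood at 0.42 for Abcb1b and 0.18 for Abcb4. In the run with 2 directions, Dpp7, a lysosomal peptidase gene, was higher (0.85) while its neighbours Uap1l1 (−0.99) and Entpd2, an ecto-nucleotidase gene (−0.67), were lower. The other runs consisted of gene families, namely Cyp2g1, Cyp2a5 and Cyp2f2, the Trim genes, H2-Q1 to H2-Q10, and 4930555G01Rik, Gm3696 and Gm5797. Genes flanking the Trim run, Trim6 and the olfactory receptor gene Olfr655, stood at 0.06 and −0.03.

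**Figure D3:**
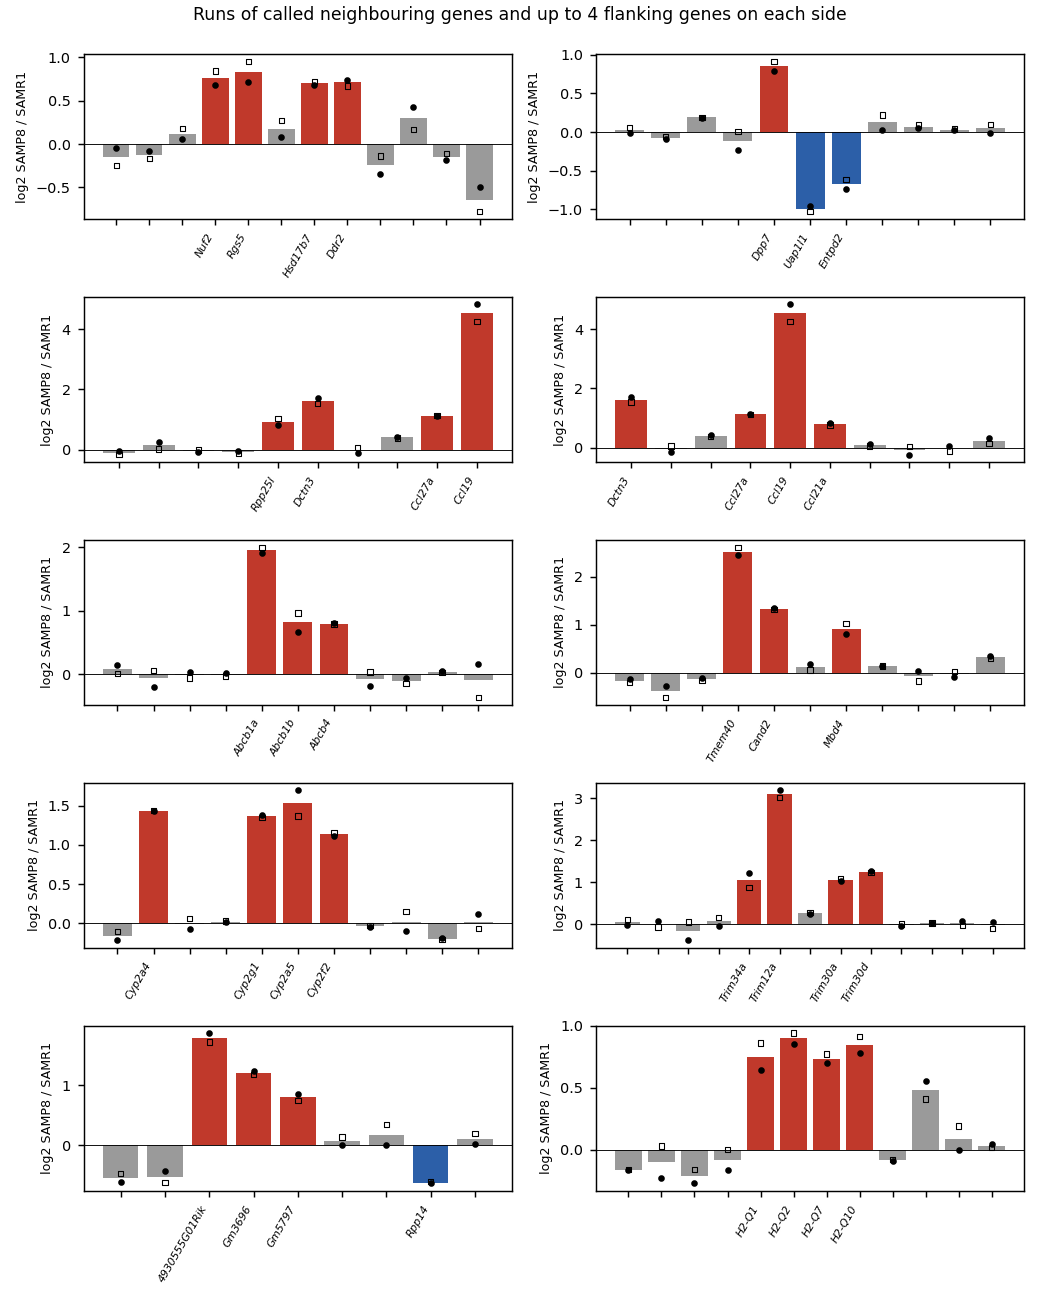
Mean log2 ratio of SAMP8 over SAMR1 (bars) in gene order for the 10 runs of called genes with up to 4 measured named genes on each side, leaving out a few genes that are not reported here, with red for higher, blue for lower and grey, without a name, for not called. Circles are the array with SAMP8 in Cy5 and squares the array with SAMP8 in Cy3, and ratios return to near 0 at the edges of most runs.

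Among the cell type markers, calls fell on the fibroblast and meningeal, mural and endothelial lists described here. The reactive astrocyte, kidney, olfactory mucosa and liver lists, given further below, held calls as well. A whole-brain RNA cannot tell a change in the number of cells from a change in RNA per cell. Fibroblast and meningeal markers had 5 of 19 higher and 0 lower, a median of 0.43, and 14 members above 0 on both arrays. The 5 were Col3a1 (0.96 ± 0.02), Col1a1 (0.86 ± 0.01), Col1a2 (0.70 ± 0.06), Fmod (0.68 ± 0.05) and Ogn (0.64 ± 0.05). A second Col3a1 probe gave −0.01, and further Col1a1 probes gave 0.48 and 0.17, so these values depend on the probe. Mural markers had 3 of 16 higher with a median of 0.24. These were Kcnj8, a potassium channel of pericytes (0.96 ± 0.02), the pericyte receptor gene Pdgfrb (0.86 ± 0.21) and Rgs5, which also lies in a run of called neighbours. Acta2, Abcc9 and Cspg4 stood at 0.15, −0.14 and 0.13.

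Endothelial markers had a median of 0.13, with Abcb1a and the interferon-responsive Ly6a (1.45 ± 0.16) higher of 24. The members went both ways, from Vwf (0.51), Pecam1 (0.44) and Flt1 (0.42) to the lipid transporter gene Mfsd2a (−0.59) and the thyroid hormone transporter gene Slco1c1 (−0.52). Of 30 transporters of the blood-brain barrier the 3 called were Abcb1a, Abcb1b and Abcb4, and the glucose transporter gene Slc2a1 stood at −0.19. Collagens as a family had 4 of 28 higher, 23 above 0 on both arrays and a median of 0.19. Besides the fibroblast genes the fourth was Col9a2 (0.73 ± 0.01), and Col4a1 of the basement membrane stood at 0.28. Among metalloproteinases and their inhibitors, Adamts2, which processes collagen, was higher (0.77 ± 0.04, second probe 0.01, call lost with the median of the probes), while Adam8 (−0.87 ± 0.11) and Timp3 (−0.63 ± 0.04) were lower of 22.

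Glial markers gave 0 calls among 18 astrocyte, 19 microglia and macrophage, 18 oligodendrocyte and 9 oligodendrocyte precursor genes. For lists of such a size this is near the 1.46% called of all measured features. Astrocyte markers had a median of 0.03, and Gfap, the intermediate filament of reactive astrocytes, was the highest at 0.55. Of 20 reactive astrocyte genes 17 were above 0 on both arrays with a median of 0.29. Hspb1 (0.55), Cp (0.46), Lcn2 (0.43) and Serpina3n (0.30) were among them, and the 2 called, Cxcl10 and Gbp2 (0.74 ± 0.12), are interferon-induced as well. Microglia and macrophage markers had a median of 0.01, from P2ry13 (−0.17) and Tmem119 (−0.14) to Mrc1 (0.56). Outside the lists, Itgax (1.02 ± 0.05), Cst7 (0.87 ± 0.13) and Lyz2 (0.85 ± 0.11, second probe 0.51) were higher. These 3 genes of myeloid cells were picked for their values and stand for no group. Olig1 and Olig2, transcription factors of the oligodendrocyte lineage, both stood at 0.38, and Mbp, of compact myelin, at −0.22 ± 0.95, with a large dye difference.

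Markers of choroid plexus and ependyma lay mostly below 0, without calls. Choroid plexus markers had a median of −0.16, with 11 of 14 below 0 on both arrays and 0 above, led by the water channel gene Aqp1 (−0.55), Folr1 (−0.32) and Calml4 (−0.30). Ttr, the thyroxine carrier of the choroid plexus, stood at −0.17 ± 0.00. Ependymal markers had a median of −0.14, with 7 of 11 below 0 on both arrays, among them Tekt4 (−0.31), Dynlrb2 (−0.29) and Foxj1 (−0.13).

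Neuronal genes differed little. Pan-neuronal markers stood between −0.10 and 0.14 with 0 of 18 called. Glutamatergic neuron markers had a median of −0.09, with 10 of 18 below 0 on both arrays, against 7191 of all 26938 features. Tbr1 (−0.30) and Camk2a (−0.22), of forebrain projection neurons, were among the lowest of these markers. GABAergic interneuron markers had a median of −0.03. Olfactory bulb markers had a median of −0.13, with 7 of 13 below 0 on both arrays, and cerebellar and striatal markers had medians of 0.07 and 0.08. Spink8, known from pyramidal cells of the hippocampus, was higher (1.17 ± 0.15), while the other 13 hippocampal markers lay between −0.26 and 0.37. Of 22 genes of cholinergic transmission, Slc5a7, the choline transporter, was higher (1.04 ± 0.12), yet Chat and Slc18a3 of the same neurons both stood at 0.05. Glutamate receptor, postsynaptic density and synaptic vesicle genes gave 0 calls each among 21, 26 and 33, near the 1.46% called of all features. A dimmer probe of the vesicle gene Cplx2 was lower (−1.02).

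Immediate early genes, the first to be transcribed when neurons fire, were in part higher. Of 35 measured, 6 were higher, 0 lower and 29 above 0 on both arrays, with a median of 0.29. Egr2 had signals of 2083 and 1882 in SAMP8 against 823 and 980 in SAMR1 (1.15 ± 0.05). Fos had 4043 and 3406 against 1594 and 2027 (1.11 ± 0.17), and Nr4a1 stood at 1.00 ± 0.11. Arc, which regulates receptors at synapses (0.66 ± 0.04), Atf3 (0.64 ± 0.06) and Egr4 (0.64 ± 0.01) completed the calls, and Egr1 (0.62) and Dusp1 (0.52) came close. Arc (0.56) and Egr4 (0.55) were no longer called under median centring without loess, which leaves 4 of the 6. Jun, Jund, Homer1 and Nptx2 stood at 0.04, −0.01, −0.10 and 0.00. The cyclic AMP response element TGACGTCA was found in the promoter of 3 of 28 measured immediate early genes (10.7%) and of 3.02% of all measured genes with a promoter. None of the 5 called genes with a promoter in the table held it within this window.

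Hormone and stress responsive lists went in different directions. Glucocorticoid responsive genes had a median of −0.18 with 2 of 24 lower, Plin4 and the kinase gene Sgk1 (−0.76 ± 0.05). The metallothionein genes Mt2 and Mt1 stood at −0.38 and −0.24 and Tsc22d3 at −0.33, while Ddit4 stood at 0.47 and Fkbp5 at 0.01. Cytosolic heat shock genes had a median of 0.11, with 11 of 28 above 0 on both arrays (6439 of all 26938 features), 0 below and 0 called. Hspb1 (0.55), Hspb8 (0.44) and Hsp90ab1 (0.39) were the highest. Genes of endoplasmic reticulum stress also had a median of 0.11, with Derl3 (0.50) and Pdia6 (0.32) at the top and 0 of 23 called. Of 25 circadian clock genes 0 were called. Their median was −0.02, with 7 above 0 and 8 below 0 on both arrays. Ciart (−0.44), Per2 (−0.37), Per3 (−0.27) and Dbp (−0.26) lay below 0, and Nfil3 (0.41 ± 0.33) and Arntl (0.22) above. These clock genes were picked for their values and stand for no group.

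Core metabolism and genes of ageing held some lists with 0 calls and some with a few. Of all measured features 1.46% were called, and 0 calls in a list of such a size is near that share. The respiratory chain had 0 of 68 called and a median of −0.04, with Ndufa12 (−0.47), Ndufa9 (−0.44) and Cox6a2 (−0.44) the lowest. The cytosolic ribosome (0 of 57), the tricarboxylic acid cycle (0 of 25), glycolysis (0 of 28), the proteasome (0 of 36) and antioxidant enzymes (0 of 33) had medians between −0.03 and 0.03. A dimmer probe of Suclg2, of the acid cycle, was lower (−1.16). Amyloid and tau genes had 0 of 30 called, and all of them lay between −0.11 and 0.18, with App and Mapt both at 0.08. Of 32 senescence and cell cycle genes 0 were called, with Cdkn2d (0.70) and Cdkn2b (0.46) the highest and Cdkn1a at −0.15. In haem synthesis Ppox was higher (1.09 ± 0.03), while Fech, the last enzyme, was lower by its brightest probe (−0.70 ± 0.01) and stood at 0.09 by its second, and with the median of its probes the call ended (−0.30). Ppox carries the response element core in its promoter as well. Among 35 genes of cholesterol synthesis and transport, Apoa2 (1.1 ± 0.10), Apoc1 (0.76 ± 0.14) and Hsd17b7 were higher. Gstm2 (1.03 ± 0.01) was the glutathione transferase called, of 22.

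Some called genes are typical of tissues outside the brain. Of 21 measured kidney transcripts 4 were lower and 0 higher, with a median of −0.12 and a range from −3.0 to 0.43. Kap, the kidney androgen-regulated protein, had signals of 59 and 51 in SAMP8 against 856 and 1007 in SAMR1. Dnase1 (−1.27 ± 0.00) and Cyp4b1 (−0.89 ± 0.08) were lower too. Acsm2, not well above background in SAMP8, was at least 1.73-fold lower, and its second probe stood at −0.33 without a call. Its call ended with the median of its probes (−0.56). Aqp2, Nphs1 and Umod, of collecting duct, podocyte and thick limb, stood at 0.01, 0.05 and −0.35. Olfactory mucosa transcripts had 4 of 14 higher, with a median of 0.19 and a range from −0.15 to 1.53. The 4 are the cytochrome P450 genes Cyp2a5 (1.53 ± 0.24), Cyp2a4 (1.44 ± 0.00), Cyp2g1 (1.37 ± 0.02) and Cyp2f2 (1.14 ± 0.03), 3 of them in a run of neighbours. Other probes of Cyp2a4 stood at 1.13 and, without a call, at 0.66. Omp, the marker of olfactory sensory neurons, stood at 0.12. Skeletal muscle and pituitary transcripts gave 0 calls, and among 17 liver transcripts Apoa2 was higher. The part that tissue beside the brain had in these values was not tested.

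The diet arrays of the series set SAMP8 mice fed whale meat extract (WME) against SAMP8 LSO under the same label. If the same RNA was used, as is assumed here, the comparisons share it and opposite signs arise wherever it stands apart, so only the values are given. The log2 ratios of WME over LSO were 4.44 ± 0.92 for Kap, 2.0 ± 0.80 for Dnase1, 1.71 ± 0.53 for Cyp4b1 and 1.52 ± 0.74 for Acsm2. Genes higher in SAMP8 than in SAMR1 had no common diet ratio. It was −1.09 ± 0.06 for S100a9, −0.91 ± 0.19 for Fos, −0.65 ± 0.04 for Egr2 and −1.03 ± 0.37 for Cyp2g1. These 4 were picked for their values and stand for no group. For Cxcl13 it was 0.60 ± 0.39. The interferon genes listed next stood nearer to 0, and all but Ifi204 (0.01) below it. Cxcl10 was at −0.24 ± 0.43, Ifi27l2a at −0.22 ± 0.25, Rtp4 at −0.19 and Usp18 at −0.16. Isg15 was at −0.14, Ifit1 at −0.04 and Gbp3 at −0.02. This choice of interferon genes also stands for no group. Among the largest strain differences, the diet ratio was −0.69 ± 0.21 for the unnamed transcript AK090125 and nearer to 0 for Ccl19 (−0.01), H2-Bl (−0.10), Trim12a (−0.10), Ppp1r1a (−0.02) and Gdpd5 (−0.08).

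Probes for the same gene did not always give the same answer. Of 4961 genes with at least 2 measured probes, 116 had a called probe. In 31 of them (26.7%) another probe was called the same way. In 57 another probe had the same sign on both arrays without being called, in 24 no other probe did, and in 4 probes were called in both directions. Those 4 were Chrna4 (0.68 and −1.76), Isoc1 (0.79 and −1.15), Krr1 (−0.90 and 0.66) and Gpatch11 (−0.98, −0.18 and 0.68). The text gives them no direction, though the counts and figures use the call of their brightest probe. Gng12 (0.14 and −1.63), Agpat5 (−0.62 and −2.34), Rpp40 (0.32 and −1.40) and 9130401M01Rik (−0.59, −0.19 and −2.39) differed widely as well, each with a call on a dimmer probe. Ccl19, Ppp1r1a, Ifi27l2a, Ifi204, Kcnn2 and Mrpl41 were called on both probes.

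**Figure D4:**
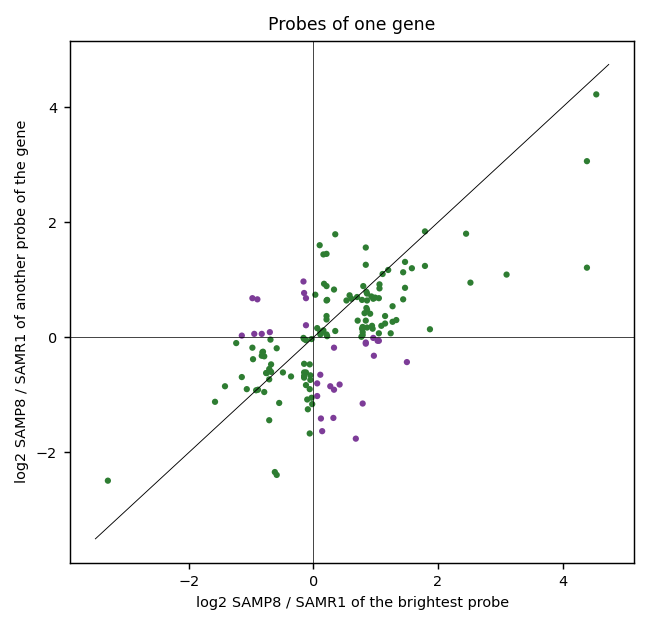
Mean log2 ratio of SAMP8 over SAMR1 of the brightest probe of a gene (horizontal) against each of its other measured probes (vertical), for the 116 genes with a called probe and at least 2 measured probes. Green points have the same sign and purple points opposite signs, which held for 29 of 152 probe pairs, and the line marks equal ratios.

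Many called transcripts had no gene symbol through the RefSeq table. They numbered 177 of 12159 such transcripts measured, 1.46%, with 107 higher and 70 lower. The clone AK090125 had the highest ratio of all measured features, with signals of 55566 and 56444 in SAMP8 against 1325 and 2074 in SAMR1 (35.4-fold). AK135623 (log2 ratio 4.30 ± 0.20), XR_004625 (4.00 ± 0.18) and BC059060 (3.52 ± 0.03) followed, and AK035950 was at least 8.69-fold higher. At the low end stood AK082555 (−2.92 ± 0.08), NAP027424-1 (−2.28 ± 0.06) and AK141551 (−2.16 ± 0.03), while AK013928 was at least 5.5-fold lower. AK044622 was well above background in SAMP8 on 1 of the 2 arrays, and its ratio of −2.40 ± 0.31 is a less certain value.

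The limit of 1.5-fold corresponds to a log2 ratio of 0.58 on each array and cuts through a continuous range of ratios. Just inside it lay Fam83d (−0.59 and −0.82 on the array with SAMP8 in Cy5 and in Cy3), Ifi27 (0.59 and 0.66) and C8g (−0.59 and −0.64). Just outside lay Dglucy (0.78 and 0.58), Wdr63 (−0.58 and −0.58) and the interferon-induced exonuclease gene Isg20 (0.75 and 0.58).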

How the data were processed

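Whole-brain RNA of each strain was put on Agilent mouse arrays as a Cy3 and a Cy5 target. Per the file headers and the submitters' notes, the deposited spot intensities came from Agilent's Feature Extraction software, version 11.0.1.1. The deposited log10 ratios come from its processed signals, per the file headers, and the deposited series table holds log2 of red over green processed signal (largest difference 5e-09, column medians 0.0036 and 0.017). Neither table was turned for the dye swap.

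Median signals were corrected with normexp and an offset of 50, which pulls ratios of dim probes towards 0, and normalized by loess within each array with limma 3.58.1 under R 4.3.3. Control spots had weight 0 in the loess curve. Outlier spots (105 to 123 per array) were left out, and spots of a probe were averaged. A gene was represented by its brightest probe. Background-subtracted signals in the text are raw, before normalization. If neither array showed an RNA well above background, only a bound is given. It sets the brighter RNA against the dim probe's own level or, if higher, the dimmest level of any well-detected probe, on channel levels after loess and Aquantile scaling.

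Of 41174 probes, 23366 were named by RefSeq accession and 10 by symbol. The strain pair and 84 gene lists were chosen with earlier results of these data known. The genes named are the 25 highest and 25 lowest called, 5 transcripts without a usual symbol at each end, up to 6 called or 3 largest members of each list, all members of runs, the 10 genes whose probes disagree most, 3 genes on each side of the limit and the brightest markers. Uncalled list members, flanking genes and second probes were printed beyond this rule and chosen after their values were seen. A few genes that this rule names, or that lie beside them, are not reported here. Normalization and calling were tested on simulated arrays with known ratios. All 4 arrays lay on 1 slide, so no batch could be compared, and the number of arrays limits the precision.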

Additional observations from a re-analysis of the deposited data

How the results depend on the processing

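Feature Extraction's processed signals called 467 genes higher and 290 lower, a fold limit of 2 on each array 101 and 38, and each array alone 323 to 388 and 176 to 239. With median centring, no offset, other dim filters, the gene's median probe or 1.5-fold of the mean, 243 to 384 were higher and 122 to 193 lower. Of the 394 calls, 393 were kept with processed signals, 374 with median centring and 356 with the median probe, and 0 were called the opposite way. Processed signals gave larger folds for dim genes, 45.1 for Trim12a, 26.7 for Ifi44, 22.3 lower for Lefty1. With the median probe Chrna4 turned to −0.54 and Isoc1 to −0.18. Of 139 named calls 23 ended under at least 1 setting, among them Arc, Egr4, Ogn, Apoc1 and Ifi27 under median centring and Col1a1, Col3a1, H2-Q10, Trim34a, Fech, Abcb4 and Zfp606 with the median probe. Called neighbours made up 35.9% within 3 genes and 21.5% at 2-fold. They made up 10.1% when neighbours whose symbols begin with the same letters were not counted, which does not remove every family copy. Medians of 33 of 84 lists changed sign under some setting, and under median centring those of bright lists moved down, the respiratory chain to −0.16 and astrocyte markers to −0.08. No paired analysis was possible because the comparison holds 1 RNA pair and no test.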
